A study of Mus musculus with 6 samples.

Results

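The 10 genes described here encode secreted antagonists of Wnt signalling (Sfrp1, Sfrp2, Sfrp4, Dkk1, Dkk2, Dkk3 and Wif1) and genes that respond to the pathway and feed back on it (Axin2, Lgr5 and Rnf43). They were found on the arrays through the accession that each probe carries, and 12 of 56605 non-control probes belonged to them, 10 of 23462 named genes. RNA came from acinar cells isolated from the pancreas of C57BL/6 mice. In the group called KC (n = 3), Cre recombinase from a Ptf1aCre allele, active in the pancreatic lineage, released an oncogenic allele from a loxP-flanked stop. The group called KCS (n = 3) carried the same alleles together with Setdb1flox/flox, so that Cre can also recombine Setdb1, the gene of a histone H3 lysine 9 methyltransferase. Both groups therefore carry the oncogenic allele, and no group without it was analysed here. By its title, the study asked about a requirement for Setdb1 in the formation of pancreatic ductal adenocarcinoma. Neither the age of the mice nor whether each sample was a separate animal is given, so the p-values measure the spread between these samples, which may be in part technical.

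Wnt ligands bind Frizzled receptors and the co-receptors Lrp5 and Lrp6, which stabilises beta-catenin and lets it act with TCF and LEF factors on its target genes. Secreted Frizzled-related proteins (the Sfrp genes) and Wif1 bind Wnt ligands outside the cell, whereas Dkk1 and Dkk2 bind the co-receptors. Axin2, Lgr5 and Rnf43 are targets that act on the pathway in turn: Axin2 is a scaffold of the complex that destroys beta-catenin, Lgr5 is a receptor for R-spondins, and Rnf43 is a ubiquitin ligase that removes Frizzled receptors from the cell surface. In the pancreas, adult acinar cells carry little Wnt activity, and stromal cells are a known source of secreted Wnt antagonists.

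The 250 bases before the start are shown for 5 members that differ in their result. They are given on the strand of the gene, from RefSeq on GRCm38.p6, and capitals mark a TCF motif. Sfrp2 (chr3:83766071-83766320, plus strand) and Dkk2 (chr3:132085042-132085291, plus strand) are antagonists that were higher in KCS. Axin2 (chr11:108920099-108920348, plus strand) is the response gene whose higher level depended on single arrays. Rnf43 (the first of 2 windows, chr11:87662837-87663086, plus strand) was lower, and Dkk1 (chr19:30549497-30549746, minus strand) was not detected.
Sfrp2: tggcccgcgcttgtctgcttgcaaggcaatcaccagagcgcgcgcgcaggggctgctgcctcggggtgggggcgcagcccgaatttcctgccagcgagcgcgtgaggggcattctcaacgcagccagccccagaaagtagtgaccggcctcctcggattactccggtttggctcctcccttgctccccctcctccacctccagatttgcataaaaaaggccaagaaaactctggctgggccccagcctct
Dkk2: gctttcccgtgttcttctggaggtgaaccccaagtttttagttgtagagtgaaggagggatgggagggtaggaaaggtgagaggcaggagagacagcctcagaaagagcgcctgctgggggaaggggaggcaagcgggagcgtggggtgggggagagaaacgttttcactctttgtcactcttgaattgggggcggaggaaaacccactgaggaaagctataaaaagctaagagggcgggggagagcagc
Axin2: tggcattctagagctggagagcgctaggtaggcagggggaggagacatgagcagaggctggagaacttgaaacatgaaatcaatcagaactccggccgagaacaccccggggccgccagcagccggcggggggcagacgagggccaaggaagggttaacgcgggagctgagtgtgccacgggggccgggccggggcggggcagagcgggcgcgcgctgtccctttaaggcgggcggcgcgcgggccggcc
Rnf43: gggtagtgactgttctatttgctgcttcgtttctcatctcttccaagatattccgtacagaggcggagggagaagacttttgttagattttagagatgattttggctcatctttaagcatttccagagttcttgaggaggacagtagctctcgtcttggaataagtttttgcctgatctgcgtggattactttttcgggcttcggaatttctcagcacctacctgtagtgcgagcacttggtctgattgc
Dkk1: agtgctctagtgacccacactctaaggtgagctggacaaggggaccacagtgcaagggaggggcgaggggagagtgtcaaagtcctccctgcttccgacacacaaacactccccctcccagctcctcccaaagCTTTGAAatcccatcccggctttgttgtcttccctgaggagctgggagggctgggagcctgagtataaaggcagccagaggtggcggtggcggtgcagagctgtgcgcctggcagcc
The letters CTTTGAT and CTTTGAA, forms of the TCF motif, were searched on both strands and occurred in 7.48% of all 32851 such windows. Among the 7 windows of 6 members, only that of Dkk1 held a match, CTTTGAA, 117 bases before the start. CpG dinucleotides numbered 24 in the Axin2 window, 21 in that of Wif1 and 16 in that of Sfrp2, against a median of 6 over all windows. The windows of Dkk2, Dkk1 and Rnf43 held 7, 6 and 8, and the second Rnf43 window held 2. These counts describe the windows, and no mark or factor was measured on them. Sfrp1, Sfrp4, Dkk3 and Lgr5 had no window.

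All values below are log2 intensities relative to the 75th percentile of the same array, called scaled log2 signal. The 75th percentile itself was 61.2 to 68.6 scanner units in KC and 347 to 423 in KCS, and the 100 brightest probes took 34.4 to 37.4% and 13.4 to 14.6% of the signal. The acinar label was borne out by the markers in KC but not in KCS: 8 of 8 acinar markers were lower in KCS (5 without KCS replicate 2), with a median log2 fold change of -9.75. Their summed signal, in units of the 75th percentile, was 16318 to 19385 in KC against 0.663, 11.2 and 1237 in KCS replicates 1 to 3, so KCS replicate 3 stood apart from the other two. Markers of fibroblasts and stellate cells were higher in 8 of 8, with none of them at background throughout KC (summed signal 200 to 266 in KC and 1106 to 1386 in KCS). Macrophage markers were higher in 5 of 5 (18.3 to 29.1 and 226 to 331), and 3 of 4 endothelial, 4 of 5 smooth muscle, 4 of 7 ductal and 2 of 5 mesothelial markers were higher. Over all features, 25.9% were higher and 34.4% lower. The smooth muscle marker Cnn1 was at background throughout KC and entered the test through KCS alone. The mesothelial count was 4 without KC replicate 2 and fell to 1 when KC replicate 3 or either of KCS replicates 1 and 3 was left out. Of the islet markers 5 of 5 were lower, and of the Schwann cell markers tested 1 of 3 was higher and 2 were lower. These last directions did not hold with scaling to the spike-in controls, which gave 1 islet marker higher and 0 lower and 3 Schwann cell markers higher and 0 lower, whereas 8 of 8 acinar markers stayed lower. Setdb1, read by 1 probe whose place relative to the floxed part was not established, differed by 0.33 ± 0.24 on the log2 scale (SE; limma adjusted p = 0.270), so the probe did not check the genotype.

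Of the 9 members that could be tested, 7 rose and 1 fell in KCS, and Sfrp4 did not pass the threshold of 0.05 on limma's adjusted p. Over all 27102 features tested, 25.9% rose and 34.4% fell. The 3 KCS arrays all lay above the 3 KC arrays for 7 members and all below for 1, against 29.8% and 38.4% of all features. The median log2 fold change was 4.21 over the 9 members and -0.19 over all features. Sfrp1, Dkk2, Wif1 and Lgr5 were well above background on all 3 KCS arrays and on no KC array. They entered the test through KCS alone, so the count and median of the members support nothing. Their fitted differences and adjusted p-values rest on KC signals at background and are given as description only. The same holds for the other genes below that were at background throughout KC. Of 4161 features with that same pattern of detection, 1949 were called higher. The dimmest scaled log2 signal well above background was -3.09 to -2.92 in KC and -5.41 to -5.23 in KCS. Detection thus reached lower in KCS on this scale. Dkk1 could not be tested. In these bulk samples, fewer cells of a type and less RNA per cell cannot be told apart.

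**Figure D1:**
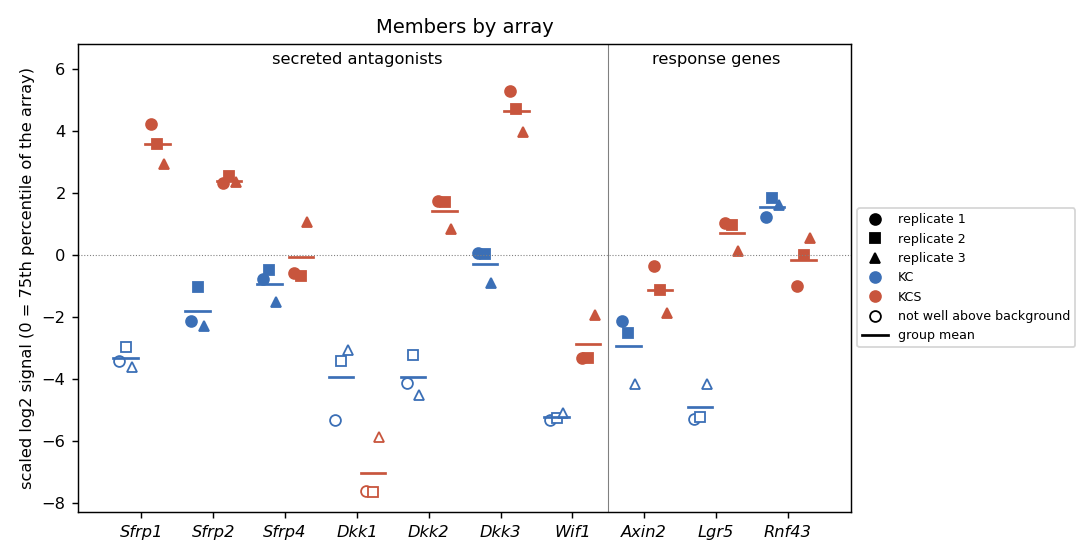
Scaled log2 signal (y axis, 0 = the 75th percentile of the array) of each of the 10 members on the 3 KC (blue) and 3 KCS (red) arrays, with the group mean as a line; open symbols are probes not well above background. For 7 members all red points lie above all blue points, Sfrp4 overlaps, Rnf43 lies lower in KCS, and every Dkk1 point is open.

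Among the secreted Frizzled-related proteins, Sfrp1 had the largest fitted fold change of the members. Its scaled log2 signal was -3.44, -2.97 and -3.62 in KC replicates 1 to 3, never well above background, and 4.22, 3.57 and 2.92 in KCS replicates 1 to 3. All KCS arrays lay far above all KC arrays, and replicate 3 was the lowest of the KCS arrays. Because KC gave only a bound, Sfrp1 was at least 94.9-fold higher in KCS, taking for KC the higher of the dimmest signal well above background and the probe's own on each array. The fitted log2 difference was 6.92 ± 0.37 (SE; limma adjusted p = 8.55e-05). With the normexp background correction, which adds an offset of 50 to every signal, it was 4.22, so this bound and those below hold for the processed signal only.

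Sfrp2, which is also secreted and binds Wnt ligands, was well above background on all 6 arrays, so that its fold needed no bound. Its scaled log2 signal was -2.14, -1.03 and -2.30 in KC and 2.30, 2.53 and 2.34 in KCS. The groups did not overlap, and the KCS arrays differed by little. Sfrp2 rose by 4.21 ± 0.35 on the log2 scale, 18.5-fold (limma adjusted p = 2.22e-04).

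Sfrp4, a relative of both, did not follow them. Its scaled log2 signal was -0.78, -0.51 and -1.54 in KC and -0.60, -0.68 and 1.05 in KCS. KCS replicates 1 and 2 lay within the range of KC, and only replicate 3 lay above it. The log2 difference was 0.87 ± 0.53 (95% interval -0.41 to 2.14; limma adjusted p = 0.197), and 0.30 without KCS replicate 3. The interval still holds increases of up to 2.14, so an unchanged level was not shown. With spike-in scaling the difference was 3.76 (limma adjusted p = 4.69e-05), a gain that the median of all features, 2.70 under that scaling, in large part shares.

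Dkk1 and Dkk2 encode Dickkopf proteins that act on the co-receptors. The Dkk1 probe gave processed signals of 1.65, 6.36 and 7.21 scanner units in KC and 1.97, 2.12 and 5.82 in KCS, none well above background, so no fold is given. Dkk2 had scaled log2 signals of -4.13, -3.22 and -4.53 in KC, again never well above background, and 1.73, 1.70 and 0.83 in KCS. The groups did not overlap. Dkk2 was at least 21.9-fold higher in KCS, with a fitted log2 difference of 5.38 ± 0.41 (limma adjusted p = 1.73e-04). With normexp that difference was 2.35, smaller than the bound.

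Dkk3, a divergent member of the Dickkopf family, was read by 2 probes. The brighter probe gave 0.05, 0.01 and -0.92 in KC and 5.29, 4.70 and 3.97 in KCS, with every array well above background. Replicate 3 was the lowest array of each group, and the groups lay far apart. The log2 difference was 4.94 ± 0.42, or 30.7-fold (limma adjusted p = 2.33e-04). The other probe, well above background on 1 KC array, gave 5.12 ± 0.36, so both probes moved alike.

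Wif1, a secreted protein that binds Wnt ligands, was dim throughout. Its scaled log2 signal was -5.33, -5.28 and -5.11 in KC, not well above background, and -3.34, -3.34 and -1.96 in KCS. The groups did not overlap, and KCS replicate 3 was the highest. The fitted log2 difference was 2.36 ± 0.40 (limma adjusted p = 0.00267), but the bound allowed only an increase of at least 1.11-fold. The dimmest signal well above background was -3.09, -3.09 and -2.92 in KC replicates 1 to 3. Wif1 in KCS replicates 1 and 2 lay below all of these, so the bound rests on KCS replicate 3. With normexp the log2 difference was -0.80 (limma adjusted p = 0.0122), so the direction for Wif1 was not the same under both corrections.

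Among the response genes, Axin2 gave an uncertain answer. The brighter of its 2 probes had scaled log2 signals of -2.14, -2.51 and -4.18 in KC, with replicate 3 not well above background, and -0.37, -1.14 and -1.89 in KCS. The KCS arrays all lay above the KC arrays, though KCS replicate 3 and KC replicate 1 were only narrowly apart. The log2 difference was 1.81 ± 0.62 (95% interval 0.32 to 3.31; limma adjusted p = 0.0419). Without KC replicate 2 the adjusted p was 0.0653, without KC replicate 3 it was 0.0836 (log2 difference 1.20), without KCS replicate 1 it was 0.114 (1.43) and without KCS replicate 2 it was 0.0966. The other probe lay near background, at means of -5.00 in KC and -5.20 in KCS with overlapping groups, and failed the filter. With the normexp correction the difference of the brighter probe was -0.015 (limma adjusted p = 0.958).

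Lgr5, the R-spondin receptor known as a marker of Wnt-dependent stem cells, had scaled log2 signals of -5.30, -5.24 and -4.16 in KC, not well above background, and 1.03, 0.97 and 0.13 in KCS. The 3 KCS arrays lay far above those of KC. Lgr5 was at least 13.4-fold higher in KCS, and the fitted log2 difference was 5.61 ± 0.40 (limma adjusted p = 1.48e-04). With normexp it was 1.66 (limma adjusted p = 2.94e-04), the same direction at a smaller size.

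Rnf43, the ligase that removes Frizzled receptors, went the other way. Its scaled log2 signal was 1.22, 1.83 and 1.59 in KC and -1.02, -0.0044 and 0.54 in KCS. All KCS arrays lay below all KC arrays, with replicate 1 the lowest and replicate 3 the highest of KCS. Rnf43 fell by 1.71 ± 0.41 on the log2 scale (limma adjusted p = 0.0116), and by 1.11 with normexp. This direction was relative to the bulk of the array: the processed signals were 155, 244 and 184 scanner units in KC and 194, 422 and 503 in KCS, and scaling to the spike-in controls gave 1.19 in the opposite direction (limma adjusted p = 0.00934).

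**Figure D2:**
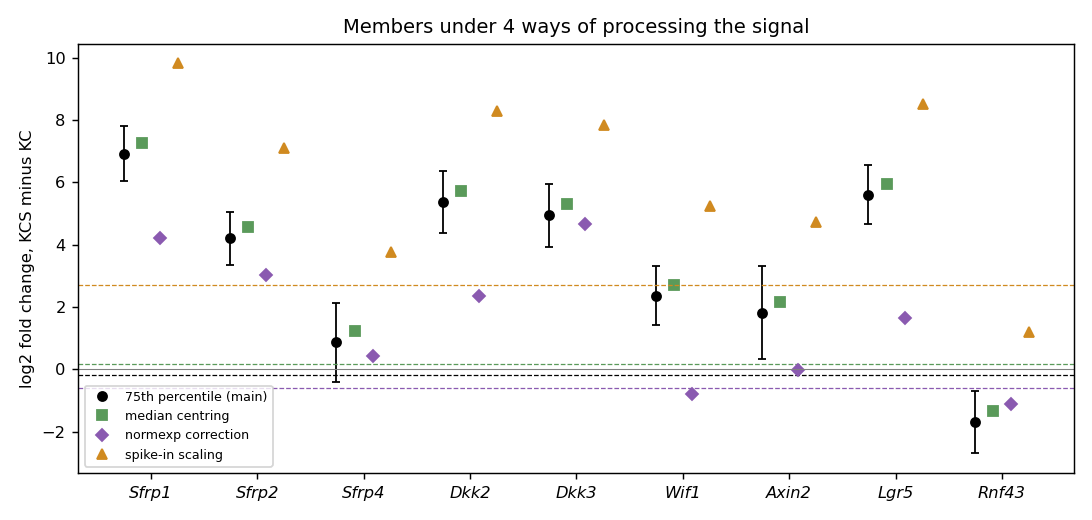
Log2 fold change of KCS over KC (y axis) of the 9 tested members under 4 ways of processing, with the 95% interval of the fit for the main one; dashed lines are the medians of all features, which run from -0.61 (normexp) to 2.70 (spike-in). Sfrp1, Sfrp2, Dkk2, Dkk3 and Lgr5 stay above 0 under all 4, Wif1 and Axin2 drop to -0.80 and -0.015 with normexp, and Rnf43 turns to 1.19 with spike-in scaling.

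The arrays lay on 2 slides, the first with replicate 1 of each group and the second with replicates 2 and 3. The KCS minus KC difference had the same sign on both slides for the 9 tested members. For all but Sfrp4 the groups did not overlap, which fixes that sign, so the match adds no support. The difference was 7.67 and 6.55 for Sfrp1, 6.33 and 5.25 for Lgr5, and -2.23 and -1.45 for Rnf43, on the first and second slide. For Sfrp4 it was 0.18 and 1.21. On the second slide alone the Axin2 call was lost (limma adjusted p = 0.0668), and the calls of the other 7 were kept.

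The members differed in how they ran within KCS. Sfrp1, Dkk2, Dkk3, Axin2 and Lgr5 were lowest in KCS replicate 3, which lay below replicate 1 by 1.30, 0.90, 1.32, 1.52 and 0.90 on the log2 scale, in that order. Sfrp4, Wif1 and Rnf43 were highest there, and replicate 1 minus replicate 3 was -1.65, -1.39 and -1.55. Sfrp2 stayed nearly level, at -0.04. KCS replicate 3 had the most acinar signal of its group (above), the highest mean of the ductal and mesothelial lists, and the lowest mean of the fibroblast, macrophage and endothelial lists. The part of these cell types in the members' values was not tested. Without KCS replicate 3 the log2 differences were 7.24 for Sfrp1, 4.24 for Sfrp2, 5.67 for Dkk2, 5.28 for Dkk3, 5.90 for Lgr5, 2.19 for Axin2, 1.90 for Wif1 and -2.06 for Rnf43, and all 8 calls held.

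**Figure D3:**
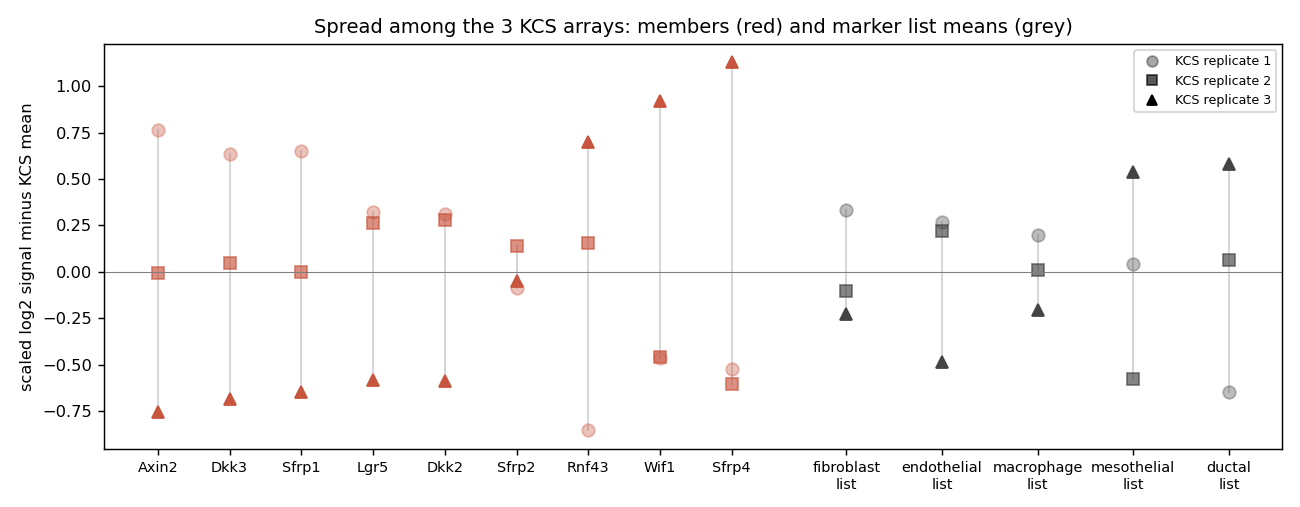
Scaled log2 signal of the 3 KCS arrays minus the KCS mean (y axis) for the 9 tested members (red) and for the mean of 5 marker lists (grey). KCS replicate 3 (triangles) is lowest for 5 members and for the fibroblast, endothelial and macrophage lists, and highest for Rnf43, Wif1, Sfrp4 and the mesothelial and ductal lists.

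Over the 6 arrays, the genes whose scaled log2 signal ran most like that of Sfrp1 were Srgn, Mxra8 and Tln1, with Pearson r of 0.9998, 0.9998 and 0.9997. Such values carry little weight, since the groups lay far apart and 3054 of 16262 genes had r above 0.95 with Sfrp1. For Sfrp2 they were Spin1, Lipo3 and Nipa2, for Dkk2 Cybb and Itga4, for Dkk3 Fut10, Gngt2 and Htra1, and for Lgr5 Smchd1, Card9 and Nrip2, with r from 0.9992 to 0.9998. Axin2 ran closest to Gm45351, Kcne4 and Lpl (0.994, 0.991 and 0.990), with 72 genes above 0.95. Wif1 ran closest to Tent5b, Gm41724 and Septin3 (0.9989, 0.9977 and 0.9969), and Rnf43 to Gm2895, Unc13b and Echdc2 (0.9979, 0.9971 and 0.9970). Sfrp4 ran close to Tubb4b and Gm41666 (0.965 and 0.963), and only 5 genes were above 0.95.

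Of 67 other genes of the pathway, 61 could be tested: 29 rose (47.5%), 14 fell and 18 did not pass, with a median log2 fold change of 0.51. Over all features, 25.9% rose and 34.4% fell. Of the 61, 8 were well above background on no KC array, and 0 on no KCS array. These 8 entered the test through KCS alone, so the share that rose supports nothing. Spike-in scaling, which lifts the median of all features to 2.70, made 8 of 9 antagonists, 14 of 15 receptors, 16 of 17 transduction genes and 14 of 14 response genes higher, so each direction below holds for the scaling to the 75th percentile.

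Other antagonists moved both ways: of 9 tested, 4 rose, 3 fell and 2 did not pass (median 0.37), against 25.9% and 34.4% of all features. Kremen1, a co-receptor of the Dickkopf proteins, rose from 0.39, 0.81 and 0.95 in KC to 2.97, 3.02 and 2.63 in KCS (2.15 on the log2 scale; limma adjusted p = 4.34e-04). Tpbg, a membrane protein that dampens beta-catenin signalling, rose by 3.97 (limma adjusted p = 0.00189), with 1 KC array well above background, and by 1.31 with normexp. Apcdd1, a membrane inhibitor, was not well above background in KC and at least 1.49-fold higher in KCS, with a fitted difference of 2.39 (limma adjusted p = 0.00220) that turned to -0.68 with normexp. The remaining relatives of the Sfrp genes were looked at after their values were seen: Frzb rose by 1.98 ± 0.34 and Sfrp5 had -1.29 ± 0.40 (limma adjusted p = 0.00272 and 0.0305). With normexp 3 of the 9 rose and 5 fell, and with no filter on dim probes 6 of 12 fell. The 3 that fell in the main fit became 1 without KC replicate 2, KC replicate 3, KCS replicate 1 or KCS replicate 2. They also became 1 with median centring and on the second slide alone. The one that fell furthest, also picked after its value was seen, was Sostdc1, a secreted inhibitor of BMP and Wnt signals (limma adjusted p = 0.00266). It was 2.37, 2.82 and 3.62 in KC and -7.47, -7.44 and -2.08 in KCS, where only replicate 3 was well above background, so no size is given for its fall.

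The 3 receptors described first were picked for the lowest p-values among those called, which favours small spread within each group. Of 15 receptors and co-receptors, 6 rose, 4 fell and 5 did not pass (median 0.24), against 25.9% and 34.4% of all features. The 4 became 2 without KC replicate 1 or 3 or without KCS replicate 2 or 3, and with median centring. The 6 include Fzd7 and Fzd10, which entered the test through KCS alone, so this count supports nothing. Fzd1 was -0.47, -0.46 and -0.60 in KC and 5.13, 5.03 and 4.45 in KCS, a rise of 5.38 ± 0.23 (limma adjusted p = 6.29e-05). Fzd2 rose by 3.61 ± 0.19 (limma adjusted p = 8.55e-05). Fzd7, not well above background in KC, was at least 5.48-fold higher in KCS (limma adjusted p = 1.20e-04), but with normexp its log2 difference was only 0.50. Of the 4 that fell, named after their values were seen, Fzd9 had the greatest drop, from 1.95, -0.39 and 1.60 in KC to -3.01, -3.99 and -1.91 in KCS (log2 difference -4.02 ± 0.76; limma adjusted p = 0.00427). The others were Lrp5, Fzd8 and Fzd3, at -1.06, -0.92 and -0.60. With spike-in scaling 0 receptors were called lower.

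The genes for making Wnt ligands secretable rose, but only 1 of them firmly. Wls, which carries Wnt proteins to the cell surface, rose by 2.07 ± 0.26 (limma adjusted p = 8.68e-04). Porcn, the enzyme that acylates them, rose by 0.75 ± 0.27 (limma adjusted p = 0.0487), and this call was lost without any one of KC replicates 1 to 3 or KCS replicates 1 and 2 (limma adjusted p from 0.073 to 0.137) and with quantile normalization (0.0678), the deposited value table (0.0524), the slide as a block (0.0534) or the replicate number as a block (0.0604).

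In the R-spondin arm, to which Lgr5 and Rnf43 belong, 4 of the other 7 genes could be tested: none rose, 2 fell and 2 did not pass (median -1.09). Of all features, 25.9% rose and 34.4% fell. Znrf3, the close relative of Rnf43, was 0.28, 0.20 and 0.07 in KC and -1.16 to -0.996 in KCS, a fall of 1.23 ± 0.16 (limma adjusted p = 0.00106). Both ligases were thus lower relative to the array, and for Znrf3 too spike-in scaling gave the opposite sign (1.66). Rspo3, an R-spondin ligand, fell by 2.05 ± 0.41 (limma adjusted p = 0.00536) and had 0.84 with spike-in scaling.

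Of 17 genes of beta-catenin transduction and the TCF family, 8 rose, 3 fell and 6 did not pass (median 0.51), against 25.9% and 34.4% of all features. The 8 became 5 without KCS replicate 2, and 4 where a gene's probes were averaged or on the second slide alone. They include Pygo1 and Lef1, which entered the test through KCS alone. The KCS signals of Pygo1, -4.56 to -4.45, lay below the dimmest signal well above background in KC (-3.09 to -2.92), so no rise is shown for it. Lef1, a factor that partners beta-catenin and is itself a target, was not well above background in KC and at least 7.45-fold higher in KCS (limma adjusted p = 1.66e-04), but with normexp its log2 difference was 0.93. The Dishevelled genes Dvl3 and Dvl1, which relay the signal from Frizzled, fell by 3.69 ± 0.38 and 1.66 ± 0.26 (limma adjusted p = 4.17e-04 and 0.00192). With spike-in scaling Dvl3 had -0.79 (limma adjusted p = 0.118) and Dvl1 turned to 1.23.

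Of 14 other response genes, 9 rose (64.3%), 2 fell (14.3%) and 3 did not pass (median 1.95), against 25.9% and 34.4% of all features. With normexp 7 rose and 4 fell. Of the 14, 3 were below detection throughout KC and entered the test through KCS alone, so the count supports nothing. Cd44, a surface glycoprotein that macrophages and stromal cells also carry, rose by 5.54 ± 0.26 (limma adjusted p = 7.14e-05). Nkd1, a feedback inhibitor that binds Dishevelled, rose from -2.31, -2.04 and -2.31 in KC to 1.51, 1.78 and 1.19 in KCS (3.71 ± 0.21; limma adjusted p = 9.67e-05), and by 2.10 with normexp. Ephb2, a receptor for ephrins, rose by 3.34 ± 0.17 on its brightest probe, but the mean over its probes gave 0.12 (limma adjusted p = 0.591), so the probes disagreed.

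**Figure D4:**
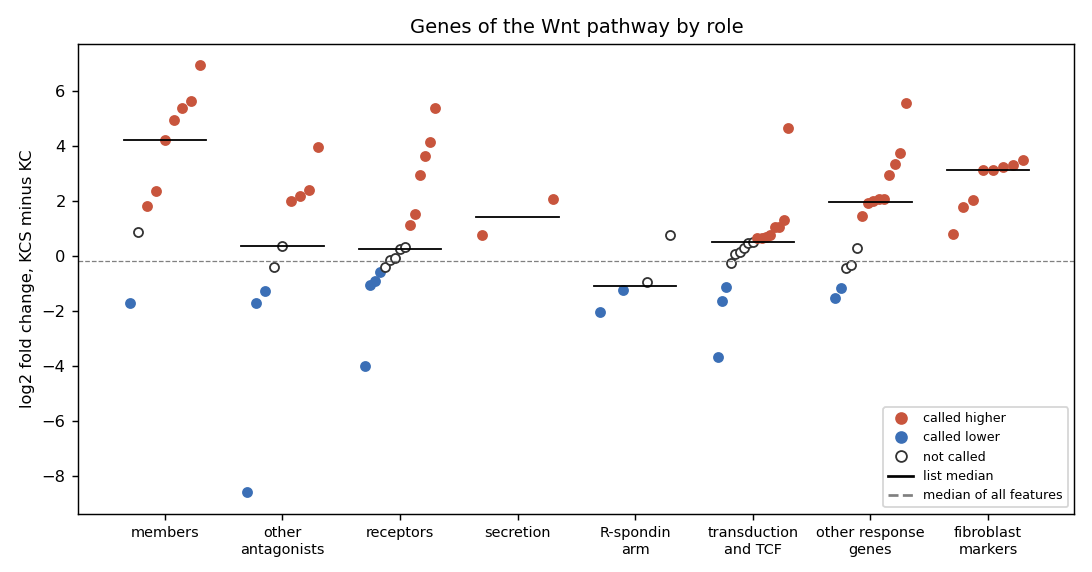
Log2 fold change of KCS over KC (y axis) of each tested gene, by role in the pathway, with fibroblast markers for comparison; red and blue points passed the limma threshold, open points did not, black lines are list medians and the dashed line is the median of all features, -0.19. Each Wnt list except secretion holds points on both sides of 0, whereas the 8 fibroblast markers lie between 0.79 and 3.49.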

How the data were processed

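RNA of 6 samples (3 KC, 3 KCS) was hybridised to single-colour Agilent arrays, 1 per sample. Per the file headers, Agilent Feature Extraction 12.0.3.1 read the scans, and the deposited processed signal is an intensity that this program had corrected for background. The series also has a deposited table of log2 values, which matched the scaled values below once each probe's median across arrays was subtracted (r of 0.999999 or above). Scale, centring and direction of that table are thereby known. In KC replicates 1 to 3 its columns had medians of -0.01, 0.05 and 0.10, and in KCS -0.05, -0.03 and -0.04.

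Log2 of the processed signal was taken, and spots of a probe were then averaged without spots marked as outliers (88 to 140 per array). Each array's own 75th percentile, without control probes, was subtracted. Accessions in the files were matched without version to RefSeq on GRCm38.p6, which named 33767 of 56605 probes. Of several probes of a gene, the brightest on average across the 6 arrays was used. Features well above background on at least 3 of 6 arrays were tested with limma 3.58.1 (lmFit and eBayes, no covariates, two-sided) in R 4.3.3, with Benjamini-Hochberg adjustment over all 27102 features and a threshold of 0.05. No member had a spot left out. Where all arrays of a group left a probe at background, its level there is a bound. The number of arrays limits the precision. The steps were tested on simulated data.

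The members and gene lists were chosen with earlier results of these data known. Named were all members, Setdb1, up to 3 called genes of lowest p-value per Wnt list, and the 3 genes most correlated with each member, of which some are not reported here. Alternatives were other scalings (quantile, median, spike-in controls), normexp with an offset of 50, other filters and probe rules, marked spots kept, another variance model, slide or replicate number as a block, each slide alone, the deposited value table, and each array left out in turn. The files held no mean signal, so normexp was run on the median signal and the median background.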

Additional observations from a re-analysis of the deposited data

How the results depend on the processing

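The counts of 7 members higher and 1 lower were kept with the deposited value table, quantile normalization, median centring, marked spots retained, no filter, the mean of probes, the other variance model and the slide as a block. With normexp, 5 were higher and 2 lower, and Wif1 (-0.80), Axin2 (-0.015) and Apcdd1 (-0.68) turned sign. With spike-in scaling 9 were higher and 0 lower, and Rnf43 (1.19), Dvl1 (1.23), Znrf3 (1.66) and Rspo3 (0.84) turned sign. The median of all features was -0.61 with normexp and 2.70 with spike-in scaling. The part of the offset and the scaling in these signs was not tested. When probes had to be well above background on all 6 arrays, 4 members could be tested, of which 2 were higher and 1 lower. Features called numbered 16345, and 31885 with no filter, where more features were tested. Leaving out each array in turn gave 6 to 7 members higher, 1 lower and 13400 to 15283 features called. The share of called features that were higher was 42.9%, against 31.1% (normexp), 56.5% (median centring), 96.8% (spike-in scaling) and 22.3% (no filter). Setdb1 passed the threshold with median centring (0.69) and spike-in scaling (3.23). Deviations from the group means correlated at 0.33, 0.043 and 0.143 between same-numbered KC and KCS samples, not all above 0.1, so the numbers were not taken as pairs. The numbers are tied to the slide: KC and KCS arrays of the same slide correlated at 0.043 to 0.33, and those of different slides at -0.27 to -0.12. Deviations cancel out within a group, so these values depend on each other, and no effect of the slide is read from them. With the slide as a block, 17225 features were called. With the replicate block, 7 members were higher, 1 was lower and 16452 features were called. Signal at background limits Dkk1, Wif1, Axin2 and the KC level of Sfrp1, Dkk2 and Lgr5.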
